A study of Mus musculus with 6 samples.

Results

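The 40 genes described here encode the machinery of mitosis: the cyclins and kinases that start it, the kinetochore and spindle that move the chromosomes, the checkpoint that times their separation, and common markers of dividing cells. They were chosen as a named list with earlier results of these data known, so the list as a whole was not tested. All 40 were found once by symbol among the 57462 genes of the expression tables. RNA sequencing had been done on 6 tumours of HM1, a mouse ovarian cancer cell line, sampled in an early tumour model. In the labels, 3 tumours were labelled shControl, with wild type given as genotype and treatment, and 3 were labelled shST3GAL3, with ST3GAL3 knockdown given for both. ST3GAL3 is an enzyme that caps galactose with sialic acid. The host strain, age and sex, the time of sampling, the hairpin vector and whether the cells were 1 clone were not found in the labels. Values are TPM (transcript abundance relative to the library's total, corrected for gene length), of whole tumours with their host cells.

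In a dividing cell, Cdk1 bound to its cyclins drives entry into mitosis, and kinetochores built on the centromeres attach each chromosome to spindle microtubules. Unattached kinetochores keep the checkpoint active, which holds back Cdc20 and so the anaphase-promoting complex. Once this complex is free it marks cyclin B and securin for destruction, the sister chromatids part, and the cell divides between them. Transcripts of these genes rise together in G2 and mitosis and are low in resting cells, so in tumour tissue they are widely read as marks of proliferation. Their promoters often carry CCAAT boxes, bound by NF-Y, and CHR elements, bound by the DREAM and MuvB complexes.

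All 40 mitotic genes had a lower mean in the shST3GAL3 tumours, where 47.3% of all genes tested had a negative log2 fold change, and none of them passed the test over all genes. Their mean level in the shST3GAL3 tumours lay between 62.9% (Hmmr) and 96.7% (Incenp) of the shControl mean, with a median of 80.0%. The median log2 fold change, shST3GAL3 minus shControl, was -0.32 over the 40 genes and 0.01 over all 14207 genes tested. For 21 of the 40, or 52.5%, every shST3GAL3 value lay below every shControl value, against 7.76% of all genes tested. For 0 of the 40 did every shST3GAL3 value lie above, against 15.7% of all genes. The log2 scale is that of TPM + 1, and the test was limma with Benjamini-Hochberg adjustment over all genes, in which 0% of genes were higher and 0.00704% lower at an adjusted p under 0.05. Adjusted p-values of the 40 genes ran from 0.38 to 0.85. At an unadjusted p under 0.05, 15 of the 40 were lower and 0 higher, against 3.78% and 9.19% of all genes. The labels do not tie each tumour to its own mouse, so the p-values speak for variation among these samples alone, part of which may be technical. An exact two-sided permutation test of 3 against 3 cannot go below 0.1.

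The difference was largest in 1 tumour, shST3GAL3 1. Against the shControl mean, the median of the 40 genes on the log2 scale was -0.61 in shST3GAL3 1, -0.16 in shST3GAL3 2 and -0.22 in shST3GAL3 3. In shControl 1, 2 and 3 it was -0.03, 0.08 and -0.03. Thus every shST3GAL3 median lay below every shControl median, with shST3GAL3 1 far below the other two. shST3GAL3 1 had the lowest of the 3 shST3GAL3 values for 39 of the 40 genes, and for 31 the values stood in the order shST3GAL3 1, 3 and 2. It lay below all shControl values for 39 genes, shST3GAL3 3 for 31 and shST3GAL3 2 for 25. Without shST3GAL3 1 the median log2 fold change was -0.17, and 38 of the 40 were negative. The count without overlap stayed at 21, against 9.44% of all genes, but it could not have changed. The highest of the 3 shST3GAL3 values was that of shST3GAL3 2 for 32 genes and of shST3GAL3 3 for 8, never that of shST3GAL3 1. The count without overlap was 30 with median-ratio scaling of the libraries, 29 with quantile normalization and 28 when the abundant mitochondrial, ribosomal and antibody genes were taken out, against 11.1%, 13.5% and 9.55% of all genes. The number with an unadjusted p under 0.05 was 10 without shST3GAL3 1, 7 without shControl 1, 5 without shControl 2 and 7 without shControl 3, against 3.13%, 2.38%, 2.05% and 1.64% of all genes lower in the same fits.

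**Figure D1:**
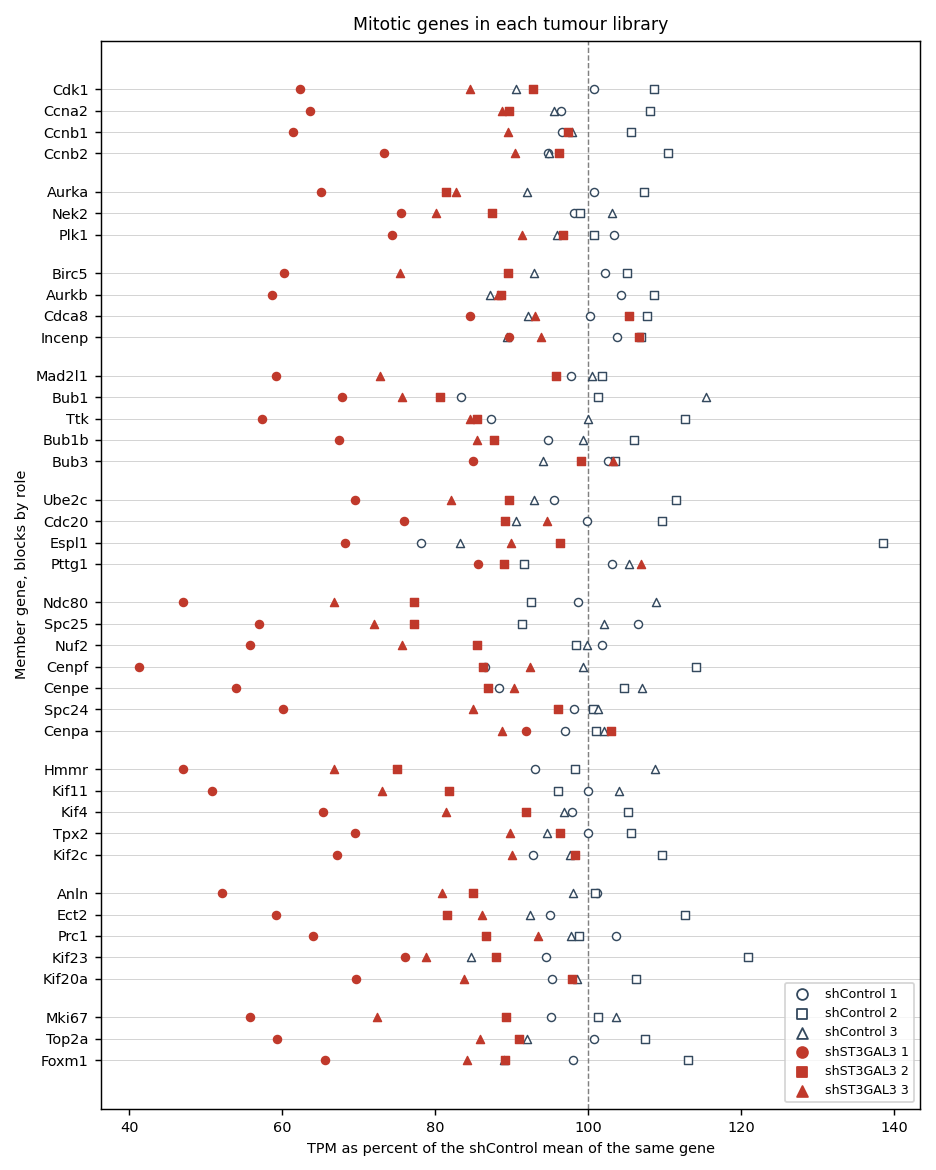
TPM of each of the 40 mitotic genes in each of the 6 libraries (points, shControl open and shST3GAL3 filled), as percent of the shControl mean of the same gene on the x axis, with genes in blocks by role on the y axis. shST3GAL3 1 is the lowest of the 3 shST3GAL3 libraries for 39 genes. The filled points lie wholly to the left of the open ones for 21 of the 40, against 7.76% of all genes tested.

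The promoters of 4 of these genes are shown, since genes of this kind are known for shared promoter elements. Spc25 and Hmmr had the smallest p among the 33 members with an entry in the RefSeq promoter table, and Bub3 and Cenpa the smallest change. Each sequence is the 250 bases before the RefSeq start, read 5′ to 3′ on the gene's strand in build GRCm38.p6, another build than that of the expression tables. Capitals mark CCAAT boxes (CCAAT, or ATTGG on the opposite strand) and CHR elements (TTTGAA or TTCGAA, or TTCAAA on the opposite strand). They lie at chr2:69206214-69206463, minus strand for Spc25, chr11:40733438-40733687, minus strand for Hmmr, chr7:131560120-131560369, plus strand for Bub3 and chr5:30666636-30666885, plus strand for Cenpa.
Spc25: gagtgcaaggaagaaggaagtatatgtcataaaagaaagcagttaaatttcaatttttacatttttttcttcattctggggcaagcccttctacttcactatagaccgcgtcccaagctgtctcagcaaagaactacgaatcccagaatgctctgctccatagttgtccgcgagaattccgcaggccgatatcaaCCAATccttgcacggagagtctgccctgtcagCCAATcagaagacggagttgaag
Hmmr: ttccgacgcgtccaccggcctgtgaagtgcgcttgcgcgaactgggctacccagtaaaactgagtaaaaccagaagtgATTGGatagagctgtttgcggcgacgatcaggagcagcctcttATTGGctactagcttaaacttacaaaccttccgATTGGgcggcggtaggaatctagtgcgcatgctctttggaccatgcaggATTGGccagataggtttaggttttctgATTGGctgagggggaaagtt
Bub3: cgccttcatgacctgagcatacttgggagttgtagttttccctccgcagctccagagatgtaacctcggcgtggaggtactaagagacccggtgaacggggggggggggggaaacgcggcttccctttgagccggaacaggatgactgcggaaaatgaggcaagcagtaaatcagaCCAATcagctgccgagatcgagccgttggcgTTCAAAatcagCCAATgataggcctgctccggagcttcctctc
Cenpa: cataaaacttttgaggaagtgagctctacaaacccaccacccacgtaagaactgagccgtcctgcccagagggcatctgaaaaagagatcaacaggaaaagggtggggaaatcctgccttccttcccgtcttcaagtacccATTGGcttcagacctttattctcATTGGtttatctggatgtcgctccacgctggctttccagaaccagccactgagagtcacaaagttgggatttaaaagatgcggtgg

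The Hmmr promoter held 5 CCAAT boxes and the promoters of Spc25, Bub3 and Cenpa 2 each, and among these 4 a CHR element was found in Bub3 alone. The Ndc80 window, of a gene at 63.6% of its shControl mean in the shST3GAL3 tumours, held 0 matches to either. Over the 33 members with an entry, 26 held a CCAAT box (78.8%), against 37.5% of all 27025 genes in the table, and 13 held a CHR element (39.4%), against 19.6%. Both were found in 12 members (36.4%) and in 7% of all genes. An E2F core (TTTCGCGC or TTTGGCGC) was found in Cdk1 alone of the 33 (3.03%, against 0.759% of all genes). Of 89 other mitotic genes with an entry, from the further list described below, 51.7% held a CCAAT box and 34.8% a CHR element. Both were found in 21.3% of those 89 and an E2F core in 5.62%. All motifs were searched on both strands in the same 250 bases, could share bases with each other, and are descriptions of letters, not of bound sites. The median log2 fold change was -0.31 for members with a CHR element and -0.38 for those without, and -0.31 with and -0.42 without a CCAAT box. The members Tpx2, Ccna2, Spc24, Kif20a, Aurkb, Incenp and Foxm1 had no entry.

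Over the 7 kinetochore and centromere genes the median was -0.42, or -0.16 without shST3GAL3 1. For 4 of the 7 every shST3GAL3 value lay below every shControl value, against 7.76% of all genes tested. All 4 were subunits of the NDC80 complex, the rod that grips microtubules at the outer kinetochore. Ndc80 stood at 19.73, 18.48 and 21.77 TPM in the shControl tumours 1, 2 and 3, and in the shST3GAL3 tumours 1, 2 and 3 at 9.39, 15.44 and 13.34 TPM. Mean levels were 19.99 ± 1.66 and 12.7 ± 3.07 TPM (SD, n = 3 each, as for all means here, with shControl given first), with a log2 fold change of -0.64 (SE 0.18, limma adjusted p = 0.38). Its partner Nuf2 stood at 26.17, 25.32 and 25.68 TPM in the shControl tumours and at 14.36, 21.97 and 19.47 TPM in the shST3GAL3 tumours (log2 fold change -0.47, SE 0.15). For both genes the highest shST3GAL3 value, that of shST3GAL3 2, lay below the lowest shControl value.

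Spc25 and Spc24 form the inner end of the same complex. Spc25 had the smallest p of the 40 genes, with 30.97, 26.57 and 29.69 TPM in the shControl tumours and 16.58, 22.44 and 20.94 TPM in the shST3GAL3 tumours. Its log2 fold change was -0.53 (SE 0.13, 95% interval -0.84 to -0.21, limma adjusted p = 0.38). Spc24 stood at 46.49, 47.67 and 47.95 TPM against 28.44, 45.5 and 40.2 TPM, so that shST3GAL3 2 lay within 1 TPM of the lowest shControl tumour. Without shST3GAL3 1 the log2 fold changes were -0.45 for Ndc80, -0.30 for Nuf2, -0.40 for Spc25 and -0.14 for Spc24.

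Of the other 3 kinetochore genes, Cenpe, a motor that moves chromosomes to the spindle middle, stood at 12.3 ± 1.25 and 9.51 ± 2.47 TPM. Cenpf, a large kinetochore protein made in G2, had the lowest levels of the 40 genes, at 5.08, 6.7 and 5.83 TPM and at 2.42, 5.06 and 5.42 TPM. In both genes the groups overlapped, and for Cenpf the log2 fold change was -0.42 with the gene's own interval from -1.04 to 0.20. Cenpa, the histone that marks the centromere, stood close to the control level in all 3 shST3GAL3 tumours, at 59.7, 66.87 and 57.68 TPM against 62.99, 65.65 and 66.3 TPM (log2 fold change -0.08, SE 0.08). With shST3GAL3 1 left out, Cenpe had a value of -0.16 and Cenpf of -0.13 on the log2 scale.

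For the spindle checkpoint genes the median log2 fold change was -0.37. For 4 of the 5 the groups did not overlap, where 7.76% of all genes tested lay wholly below. Mad2l1, whose product binds and holds Cdc20, stood at 40.36, 42.03 and 41.48 TPM in the shControl tumours and at 24.43, 39.56 and 30.07 TPM in the shST3GAL3 tumours (log2 fold change -0.41, SE 0.17). shST3GAL3 2 came within 1 TPM of the shControl range. The kinase gene Bub1 stood at 14.48, 17.58 and 20.04 TPM and at 11.78, 14 and 13.15 TPM (log2 fold change -0.39, SE 0.14). Bub1b, which encodes the checkpoint protein BubR1, stood at 24.7 ± 1.40 and 19.8 ± 2.73 TPM, and Ttk, the kinase Mps1 that starts the checkpoint signal, at 11.0 ± 1.39 and 8.30 ± 1.75 TPM. Without shST3GAL3 1 the log2 fold changes were -0.25 for Mad2l1, -0.32 for Bub1, -0.20 for Bub1b and -0.21 for Ttk, and the group median was -0.21.

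Bub3, the partner that carries Bub1 and BubR1 to the kinetochore, differed from these in its values. It stood at 80.25, 80.93 and 73.57 TPM in the shControl tumours and at 66.43, 77.51 and 80.77 TPM in the shST3GAL3 tumours, with overlap (log2 fold change -0.07, SE 0.10). Without shST3GAL3 1 it was 0.02, and 0.01 after a correction for transcript GC content, so no direction can be given. The same split was seen in the chromosomal passenger complex, which corrects faulty attachments and sits at the cleavage site in late mitosis. Birc5, its small subunit survivin, stood at 82.38, 84.7 and 74.9 TPM and at 48.55, 72.16 and 60.85 TPM, without overlap (log2 fold change -0.42, SE 0.15, and -0.28 without shST3GAL3 1). Its kinase gene Aurkb stood at 41.2 ± 4.66 and 32.4 ± 7.10 TPM, with overlap. The scaffold gene Incenp stood at 37.75, 38.89 and 32.5 TPM and at 32.61, 38.77 and 34.12 TPM (log2 fold change -0.05, 95% interval -0.30 to 0.21). Cdca8, which encodes borealin, stood at 30.3 ± 2.35 and 28.6 ± 3.18 TPM (log2 fold change -0.08, 95% interval -0.35 to 0.18). The sign of Incenp turned without shST3GAL3 1, without shControl 2 and with library weights (0.00, 0.00 and 0.04), and that of Cdca8 with library weights (0.02). Whether the subunits of 1 complex differed from each other was not tested.

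Among spindle motors and microtubule proteins, Hmmr and Kif11 had the largest differences. For 3 of the 5 genes the groups did not overlap, where 7.76% of all genes tested lay wholly below. Hmmr encodes a spindle protein that also binds hyaluronan. It stood at 19.73, 20.84 and 23.08 TPM in the shControl tumours and at 9.98, 15.92 and 14.16 TPM in the shST3GAL3 tumours, the most negative log2 fold change of the 40 genes (-0.65, SE 0.17, 95% interval -1.06 to -0.24). Kif11, the kinesin Eg5 that pushes the spindle poles apart, stood at 20.15, 19.34 and 20.95 TPM and at 10.25, 16.48 and 14.71 TPM (log2 fold change -0.54, SE 0.17). In shST3GAL3 1 the levels of Hmmr, Ndc80 and Kif11 were 47.0%, 47.0% and 50.9% of the shControl mean. Without that tumour their log2 fold changes were -0.47, -0.45 and -0.35. Kif4, a kinesin of chromosome arms and the central spindle, stood at 10.9 ± 0.50 and 8.65 ± 1.46 TPM. Tpx2, which activates Aurora A on the spindle, stood at 42.0 ± 2.30 and 35.8 ± 5.87 TPM, and Kif2c, a kinesin that takes microtubule ends apart, at 16.9 ± 1.47 and 14.4 ± 2.73 TPM, both with overlap.

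The genes of the central spindle and of cytokinesis had a median of -0.31. There was no overlap for 3 of 5, where 7.76% of all genes tested lay wholly below. Anln, an actin-binding protein of the cleavage furrow, stood at 60.89, 60.79 and 59.02 TPM in the shControl tumours and at 31.36, 51.17 and 48.68 TPM in the shST3GAL3 tumours (log2 fold change -0.48, SE 0.18). The shControl values were within 2 TPM of each other, and all shST3GAL3 values lay below them; without shST3GAL3 1 its log2 fold change was -0.27. Ect2, the exchange factor that switches on RhoA at the furrow, stood at 16.8 ± 1.86 and 12.7 ± 2.42 TPM. Prc1, which bundles central spindle microtubules, stood at 51.7 ± 1.63 and 42.0 ± 7.96 TPM. The motors Kif20a (27.5 ± 1.54 and 23.0 ± 3.87 TPM) and Kif23 (33.0 ± 6.17 and 26.7 ± 2.05 TPM) overlapped between the groups.

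Cdk1 and its cyclins, which set the entry into mitosis, had a median of -0.30. Only 1 of the 4, Ccna2, showed no overlap, where 7.76% of all genes tested lay wholly below. Cdk1, the most abundant member, stood at 166.31, 179.2 and 149.35 TPM and at 102.79, 153.08 and 139.41 TPM, so that shST3GAL3 2 lay above shControl 3 (log2 fold change -0.34, SE 0.16, and -0.17 without shST3GAL3 1). Ccna2, the cyclin of S phase and early mitosis, stood at 40.3 ± 2.84 and 32.5 ± 5.94 TPM, without overlap. Ccnb1 and Ccnb2, the mitotic B-type cyclins, stood at 40.1 ± 1.98 and 33.2 ± 7.56 TPM and at 49.1 ± 4.43 and 42.5 ± 5.83 TPM, with overlap. Without shST3GAL3 1 the group median was -0.13. Of 3 annotated pseudogenes named after members, Ccnb1-ps and Kif4-ps were listed at 0 in every library and Ccnb2-ps at 1.29 to 2.41 TPM, so a division of reads between Ccnb2 and its copy is possible.

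Of the other mitotic kinases, Aurka, which matures the spindle poles, stood at 38.13, 40.58 and 34.8 TPM in the shControl tumours and at 24.62, 30.81 and 31.28 TPM in the shST3GAL3 tumours (log2 fold change -0.38, SE 0.12). Its groups did not overlap, and shST3GAL3 2 and 3 were close to each other. Nek2, a kinase that splits the centrosomes, stood at 11.5 ± 0.31 and 9.30 ± 0.69 TPM, also without overlap (log2 fold change -0.28, and -0.24 without shST3GAL3 1). Plk1, which acts from entry to cytokinesis, stood at 36.8 ± 1.39 and 32.2 ± 4.28 TPM, with overlap.

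The genes that trigger anaphase had a median of -0.20 over 4 genes, and of -0.08 without shST3GAL3 1. Ube2c, the ubiquitin-conjugating enzyme of the anaphase-promoting complex, stood at 114.79, 133.88 and 111.63 TPM and at 83.4, 107.69 and 98.61 TPM, without overlap (log2 fold change -0.31, SE 0.12). Cdc20, the activator of that complex, stood at 46.9 ± 4.49 and 40.6 ± 4.48 TPM. Pttg1, which encodes securin, the inhibitor of separase, stood at 52.98, 47.06 and 54.07 TPM and at 43.96, 45.73 and 54.91 TPM, with the highest of the 6 values in shST3GAL3 3. Espl1, separase itself, stood at 8.45, 14.99 and 9.01 TPM and at 7.38, 10.42 and 9.73 TPM. Its difference rested on shControl 2: without that tumour the log2 fold change was 0.05.

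The markers of dividing cells gave the same order of tumours. Mki67, which encodes the proliferation antigen Ki-67, stood at 37.9, 40.39 and 41.32 TPM in the shControl tumours and at 22.23, 35.58 and 28.84 TPM in the shST3GAL3 tumours (log2 fold change -0.48, SE 0.16). Top2a, the enzyme that untangles sister DNA, stood at 139.97, 149.23 and 127.92 TPM and at 82.47, 126.45 and 119.31 TPM. Both were without overlap, Top2a by less than 2 TPM. Foxm1, a transcription factor that drives many of the genes above, stood at 22.19, 25.59 and 20.15 TPM and at 14.86, 20.18 and 19.05 TPM, and overlapped by the value of shST3GAL3 2. Without shST3GAL3 1 the log2 fold changes were -0.31 for Mki67, -0.17 for Top2a and -0.19 for Foxm1.

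**Figure D2:**
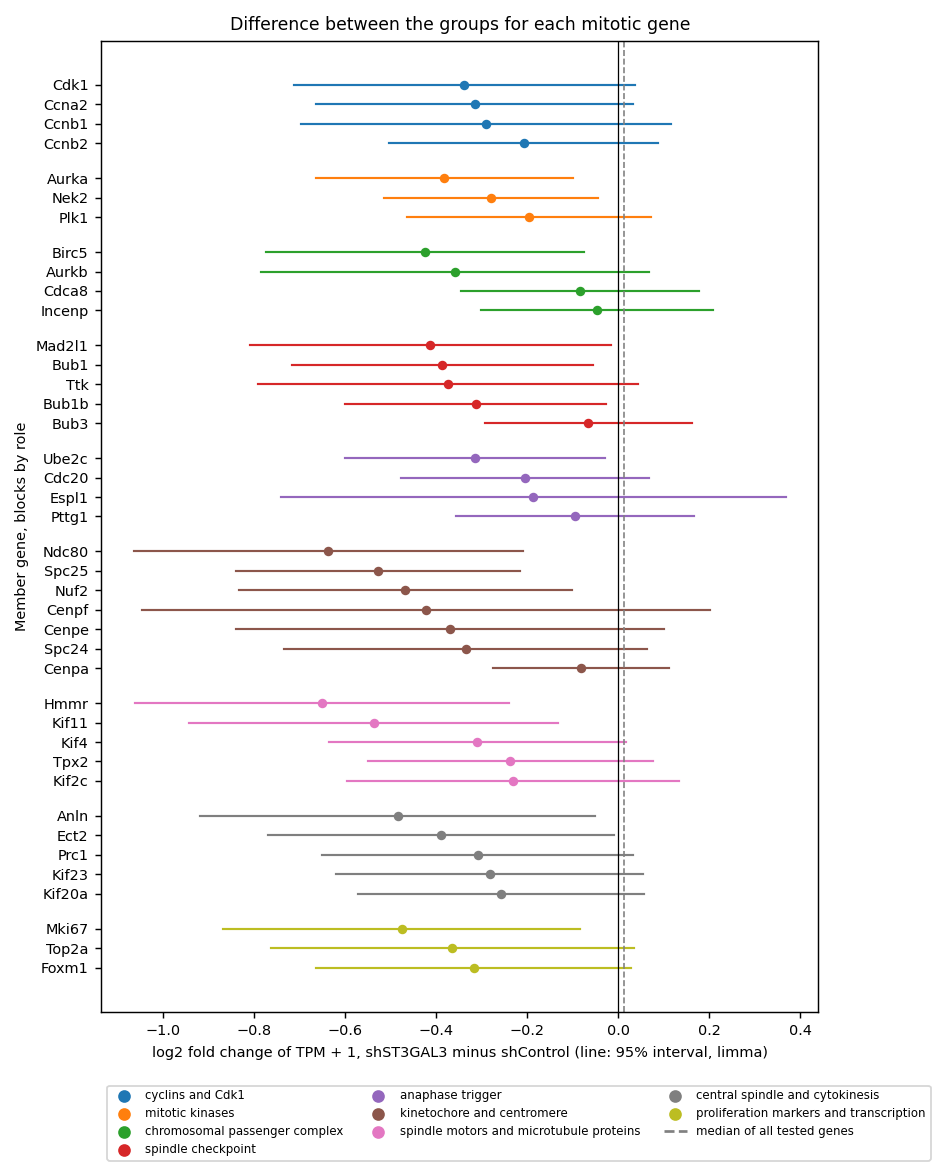
Log2 fold change of each of the 40 mitotic genes (x axis, shST3GAL3 minus shControl on the log2(TPM + 1) scale; points, with lines for the 95% interval from limma), in blocks by role on the y axis, with the median of all tested genes as a dashed line. All 40 points lie below 0, the interval excludes 0 for 15, and Incenp, Bub3, Cenpa, Cdca8 and Pttg1 lie nearest to it.

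A further 106 genes of the mitotic apparatus were listed, also with earlier results of these data known. All 106 were tested, with 0 passing in either direction over all genes. Of these, 95 had a negative log2 fold change, 32 were lower and 0 higher at an unadjusted p under 0.05, and 46 (43.4%) showed shST3GAL3 values wholly below shControl values. Over all genes tested, 47.3% were negative, 3.78% were lower and 9.19% higher at that threshold, and 7.76% lay wholly below. The median of the 106 was -0.29, and -0.13 without shST3GAL3 1. Those lower with the smallest p were Cenph, an inner kinetochore gene (16.0 ± 1.03 and 10.9 ± 1.66 TPM), Smc4, a condensin core gene (43.0 ± 3.83 and 28.5 ± 7.37 TPM), Cenpq (10.4 ± 0.82 and 6.78 ± 1.62 TPM) and Esco2, which acetylates cohesin (6.23 ± 0.76 and 3.57 ± 1.23 TPM).

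Within this list the spindle and cytokinesis genes had a median of -0.37, with 26 of 26 negative and 19 without overlap. The condensin and cohesin genes had a median of -0.29 (15 of 15 negative, 8 without overlap), and the inner and outer kinetochore genes one of -0.30 (27 of 30, 11 without overlap). Entry kinases, phosphatases and regulators had a median of -0.25 (18 of 20, 6 without overlap). The anaphase-promoting complex genes stood nearest to all genes, with a median of -0.09, 9 of 15 negative and 2 without overlap. Over all genes tested, 47.3% were negative and 7.76% lay wholly below. Among the 11 genes of the whole list with a positive value, those with the smallest p were Cdc23, a subunit of that complex (24.0 ± 4.71 and 29.4 ± 2.59 TPM, limma adjusted p = 0.409), Ensa, Mad1l1 and Cenpo. The sign of Cenpo turned without shST3GAL3 2 (-0.05).

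As a check of the labels, St3gal3 stood at 14.03, 13.84 and 13.79 TPM in the shControl tumours and at 8.44, 6.77 and 7.49 TPM in the shST3GAL3 tumours, so shST3GAL3 1 had the highest of the 3 knockdown values. Its log2 fold change was -0.80 (SE 0.11, limma adjusted p = 0.348), without overlap but not past the test over all genes. The number of genes with a TPM of 1 or more ran from 13930 to 14762. Of the labelled cell type's markers, the keratin genes Krt8, Krt18 and Krt19 were abundant, with 384.42 to 1303.81 TPM, while Muc16 was listed at 0 throughout, Krt7 stayed under 1 TPM, and Epcam and Pax8 did so in 5 of the 6 libraries each.

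Markers of other cell types also differed between the tumours. In bulk tissue, fewer cells of a type and less RNA per cell cannot be told apart. The summed TPM of the 40 genes was 1661, 1768 and 1605 in the shControl tumours and 1120, 1534 and 1437 in the shST3GAL3 tumours. The sum of 10 fibroblast markers ran from 841 to 1357 TPM in the shControl tumours and stood at 7395, 2273 and 1568 TPM in shST3GAL3 1, 2 and 3, with 9 of 10 wholly above the control range. The sum of 8 endothelial markers ran from 54.4 to 75.2 TPM and stood at 262, 116 and 99.5 TPM, with 7 of 8 above the range. For macrophages the sum was 2217 to 2440 and 2387 to 4090 TPM (3 of 8 markers above the range), for T cells 64.3 to 85.6 and 78.6 to 161 TPM (3 of 8), and for B and plasma cells 6.16 to 53.3 and 43.5 to 4061 TPM (2 of 8). Early response and handling genes summed to 399 to 424 TPM in the shControl tumours and to 737, 510 and 479 TPM in shST3GAL3 1, 2 and 3 (3 of 10). Beside these marker counts, 15.7% of all genes tested lay wholly above the control range.

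The sum of 10 epithelial and ovarian tumour cell markers, nearly all of it keratins, was 3296, 3690 and 3209 TPM in shControl 1, 2 and 3 and 1782, 2703 and 3214 TPM in shST3GAL3 1, 2 and 3. Of these markers 1 of 10, Krt19, lay wholly below the control range, against 7.76% of all genes tested. The 40 mitotic genes are not among these markers, and their sum was expressed as a percentage of the marker sum. It was 50.4%, 47.9% and 50.0% in the shControl tumours and 62.9%, 56.8% and 44.7% in the shST3GAL3 tumours. On this scale, chosen after the values were seen, 2 shST3GAL3 tumours lay above the control range and 1 below it. shST3GAL3 1 had the lowest mitotic sum and the lowest Krt8, Krt18 and Krt19 values of the 6 tumours. It had the highest fibroblast, endothelial, macrophage, T cell, B and plasma cell and early response sums. The B and plasma cell sum was 4061 TPM there, mostly Igkc (3772 TPM), against 6.16 to 319 TPM in the other 5 tumours. Other genes of the epithelial list stood highest there: Cdh1 at 9.46 TPM against 2.44 to 3.14 in the other 5 tumours, Epcam at 1.17 against 0.07 to 0.31 and Wt1 at 3.01 against 0.49 to 1.48. The heat shock genes Hspa1a and Hspa1b stood at 19.34 and 23.89 TPM there, against 1.73 to 4.61 TPM in the other 5 tumours. The part of these other cells in the lower mitotic values was not tested.

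**Figure D3:**
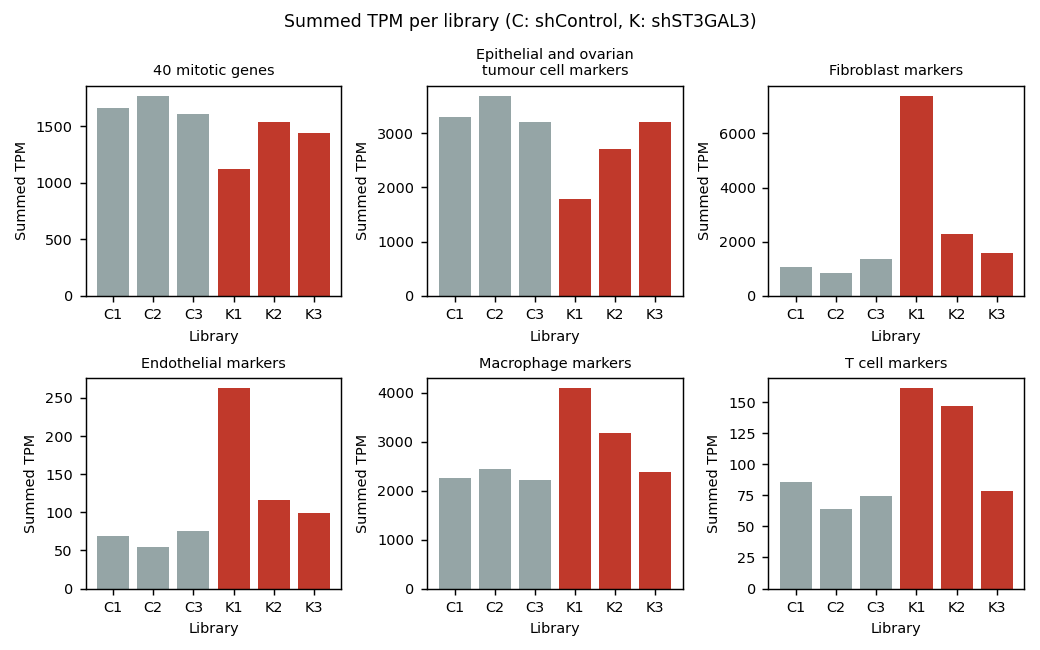
Summed TPM per library (bars, y axis from 0) of the 40 mitotic genes and of 5 cell type marker lists, with shControl 1 to 3 as C1 to C3 and shST3GAL3 1 to 3 as K1 to K3 on the x axis. The mitotic sum is 1605 to 1768 TPM in the shControl and 1120 to 1534 TPM in the shST3GAL3 libraries, and K1, the lowest, has the highest fibroblast sum of 7395 TPM.

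The size of the difference varied among the 40 genes with the base composition of their transcripts. Across the 40 genes, the log2 fold change and the GC content of the longest coding transcript had a Spearman rho of 0.569 and a Pearson r of 0.493. It was a description over genes of the same 6 libraries, which are not independent replicates. Over the 105 other mitotic genes with a GC value rho was 0.495, and over 13605 of the tested genes 0.224. Mad2l1, Ect2, Bub1 and Hmmr, with GC contents of 40.1%, 40.2%, 41.0% and 41.8%, had log2 fold changes from -0.65 to -0.39, while Espl1, Plk1 and Cdc20, with 56.1%, 56.0% and 55.6%, had -0.19, -0.20 and -0.21. Bub3 (42.3%) and Ube2c (55.5%, log2 fold change -0.31) did not follow this order. All tested genes with a GC value were put in 5 bins of equal size, and the median log2 fold change was -0.09 in the bin of lowest GC content and 0.07 in that of the highest. Most members stood below the median of all genes of their bin, 12 of 13, 12 of 12, 6 of 6, 7 of 7 and 2 of 2 from lowest to highest GC. After each library was corrected for GC content, the median of the 40 genes was -0.31, 39 were negative, and 25 showed no overlap, against 10.8% of all genes. With gene length rho was -0.237, and with the mean level 0.259.

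**Figure D4:**
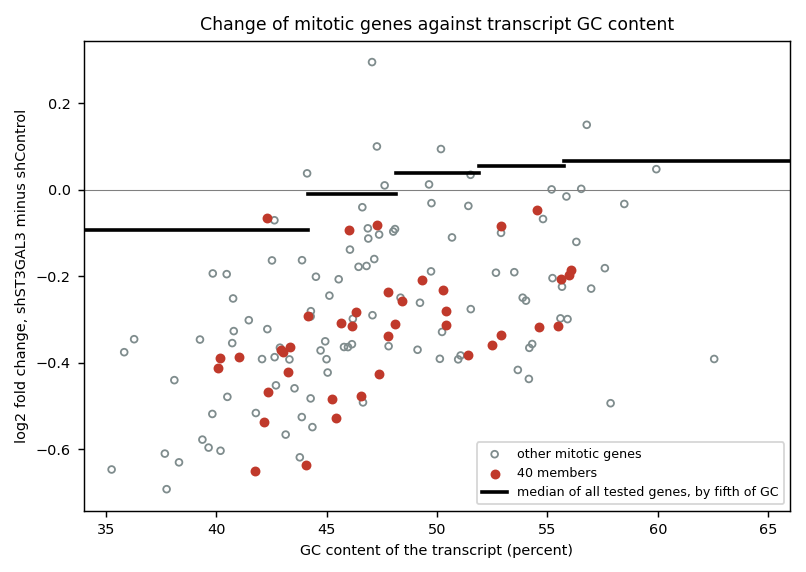
Log2 fold change (y axis, shST3GAL3 minus shControl) against the GC content of the longest coding transcript in percent (x axis) for the 40 mitotic genes (filled points) and the other mitotic genes (open points), with the median of all tested genes in each of 5 bins of GC content as black bars. The bars run from -0.09 to 0.07, and 39 of the 40 filled points lie below the bar of their bin.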

How the data were processed

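RNA sequencing of 6 whole tumours was analysed, 3 shControl and 3 shST3GAL3, grouped by title. Illumina libraries were made from TRIzol-extracted total RNA, per the labels' protocols. The values deposited by the authors are TPM, judged from their sums of 999999 to 1000001 per library. The tools fastp, HISAT and RSEM and the build GRCm39 are listed, without versions, in the submitters' processing notes, which give no annotation or strand setting. With TPM the depth of each library is unknown, and precision rests on the replicates. TPM is relative: a rise of some transcripts lowers all others.

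The filter kept genes reaching a TPM of 1 in at least 3 libraries (14207, with all 40 members). The test was limma 3.58.1 in R 4.3.3 on log2(TPM + 1) with a mean-variance trend, adjusted over all genes at 0.05. Members, role groups, lists and the naming rule (St3gal3, all members, the 4 other mitotic genes with the smallest p in each direction) were chosen with earlier results of these data known. Simulated data took the spreads of these 14207 genes, shuffled among genes, with noise drawn independently. On these data the fit recovered 60.8% of changes of log2 size 1 and 86.8% of size 2, with 5.34% unchanged genes among the calls. Both sizes exceed every change among the 40 genes, so recovery at their size was not measured. GC content came from GENCODE M21 transcripts by gene ID (95.8% of tested genes), and promoters from RefSeq, both on GRCm38. Alternatives were 2 other pseudocounts, 2 other filters, 3 scalings, library weights, the replicate number as a block and leaving out each library; a GC correction in 20 bins was added after seeing the data.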

Additional observations from a re-analysis of the deposited data

How the results depend on the processing

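Over 16 alternatives the median log2 fold change of the 40 mitotic genes ran from -0.41 to -0.17, and 36 genes were negative in all of them. None of the 40 passed over all genes in any alternative, with a smallest adjusted p of 0.138 (library weights). The number without overlap ran from 21 to 31. Pseudocounts, filters, the block and library weights leave the order of the values of these genes unchanged, and leaving out a library cannot lower the count. Only the 3 other scalings (30, 29 and 28) and the GC correction (25) could have lowered it. On the main scale, under those scalings and with the GC correction, 18 genes showed no overlap in any. Leaving out 1 library gave medians from -0.41 to -0.17 for the 40 and from -0.36 to -0.13 for the other mitotic genes. With library weights, which gave shST3GAL3 1 a weight of 0.204, the median was -0.19, and St3gal3 passed (log2 fold change -0.89, adjusted p = 0.0337, against 0.348 with equal weights).

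Over all genes 0 were higher and 1 lower with the settings of the report. There was 1 higher with a pseudocount of 0.1 and of 0.5, 0 lower with a TPM of at least 1 in all 6 libraries, and 5 higher and 3 lower with library weights. Leaving out 1 library gave 0 to 2 lower: 0 without any 1 shControl library and 2 without shST3GAL3 2 or shST3GAL3 3. The cause was not tested. Over the fits that left out 1 library, log2 fold changes ran from -0.12 to 0.0039 for Incenp, -0.12 to 0.017 for Bub3, -0.33 to 0.053 for Espl1 and -0.05 to 0.25 for Cenpo. Signs turned for Incenp (0.038 with library weights, 0.0018 without shControl 2, 0.0039 without shST3GAL3 1), Cdca8 (0.020 with library weights), Bub3 (0.017 without shST3GAL3 1, 0.0083 with the GC correction), Espl1 (0.053 without shControl 2) and Cenpo (-0.052 without shST3GAL3 2).

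Over all genes tested, deviations from the group means had a Pearson r near 0 between same-numbered libraries (0.0145, -0.0799 and 0.0402 for numbers 1, 2 and 3). The labels do not pair them. These values do not describe the 40 genes alone. Among those, shControl 2 had the highest of the 6 values for 25 genes. shST3GAL3 2 had the highest of the 3 shST3GAL3 values for 32. Whether number 2 shared a deviation in the 40 genes was not tested. With the replicate number as a block, 0 of the 40 passed. The median stayed at -0.32, since in this balanced design a block changes the standard errors but not the log2 fold changes.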
